A study of Homo sapiens with 18 samples.

Results

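The p53 family members TP63 and TP73 and 7 target genes of p53 (CDKN1A, MDM2, GDF15, SESN1, ZMAT3, FDXR and GLS2) were followed through a METTL3 CRISPR experiment in 3 related breast epithelial cell lines. The 9 genes were chosen by symbol from the 35933 genes with values, and all 9 entered every main test. TP73, low in MCF10AT1, was too low to enter some of the alternative fits. RNA was sequenced from 18 libraries, 3 replicates named a, b and c for each of 6 groups. MCF10-A is an immortalized, non-tumorigenic human breast epithelial line, MCF10-AT1 is its derivative carrying a mutated HRas, and MCF10-CA1H (written MCF10CA1h here) was grown out of MCF10AT1 by serial passage as mouse xenografts. All cells were kept in the same medium with horse serum, insulin, hydrocortisone, cholera toxin and epidermal growth factor. For each line, cells transfected with Cas9, mCherry and a control guide were compared with cells transfected with a guide against the first exon of METTL3, the catalytic subunit of the complex that writes N6-methyladenosine on mRNA. In both cases, mCherry-positive cells were sorted and a line was grown from a single cell, so the 3 replicates of a group came from 1 clonal line and their spread does not include differences between clones.

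p53, p63 and p73 are related transcription factors that bind the same kind of DNA element. p53 is stabilised by DNA damage and other stresses and then raises genes that halt the cell cycle, repair DNA, limit growth or kill the cell, while its target MDM2 marks it for degradation and so closes a feedback loop. In the breast, p63 is best known as a factor of basal epithelial cells, where it maintains keratin and adhesion genes, and p73 can act on many p53 targets. Both TP63 and TP73 are transcribed from separate start sites into full-length and shorter, partly opposing forms. The values used here sum all transcripts of a gene, so these forms were not told apart.

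METTL3 itself (chr14:21498133-21511342 of hg38, minus strand) was examined first. Its normalized counts in MCF10A were 752, 686 and 459 in control replicates a, b and c and 939, 981 and 510 in the libraries labelled knockdown. The MCF10AT1 libraries held 968, 1016 and 805 in the control and 816, 752 and 902 in the labelled knockdown. Counts of MCF10CA1h were 1022, 1102 and 1280 in the control and 825, 745 and 843 in the labelled knockdown. Separate groups were seen only in MCF10CA1h, where METTL3 RNA was lower (the log2 fold change by limma was -0.49, with a standard error of 0.12 and an adjusted p = 0.0234). That call was lost without an intensity trend in the fit (adjusted p = 0.0742) and in a fit of all 18 libraries (adjusted p = 0.501), and with single libraries left out the adjusted p ranged from 0.0385 to 0.0906. The log2 fold change was 0.33 in MCF10A (standard error 0.30, adjusted p = 0.618) and -0.17 in MCF10AT1 (standard error 0.26, adjusted p = 0.707). An exact permutation test (two-sided) gave p = 0.5, 0.3 and 0.1 in MCF10A, MCF10AT1 and MCF10CA1h, and no p under 0.1 can be reached with 3 against 3 libraries. Because METTL3 RNA was not shown to be lower in MCF10A and MCF10AT1, the groups are called here by their labels. RNA level does not give protein level. The study reported lower METTL3 protein by Western blot in each line, to a moderate degree in MCF10CA1h. By real-time PCR it reported lower METTL3 RNA in the knockdown lines as well, a smaller effect than that on protein. It also reported a significant decrease of N6-methyladenosine in MCF10AT1 and MCF10CA1h and a non-significant one in MCF10A.

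The library sums lay between 21347352 and 31681834 normalized counts, and the number of reads behind a value is unknown. Replicate b of the MCF10AT1 control stood apart, with 20121 genes above 0 against 22669 to 26410 in the other libraries, and its most frequent low value was 1.77 against 0.81 to 1.23 elsewhere. The labelled knockdown of MCF10AT1 went against its epithelial label: CDH1 (E-cadherin) fell from 3906 ± 2051 (SD, n = 3) to 40.9 ± 34.7 (log2 fold change -6.79) and EPCAM from 3785 ± 439 to 107 ± 24.7 (log2 fold change -5.16), while both were above 300 in every library of the other 5 groups. Of the 8 breast epithelial markers, 5 fell there and none rose, and their summed level was 25221 to 54618 against 97174 to 147006 in the control. Of the 9 fibroblast markers, 6 were tested and 2 rose, THY1 and COL3A1, and their summed level was 2816 to 4584 against 470 to 740, with COL1A2 and LUM at 0 in the control. The leukocyte and endothelial markers, 2 of 7 tested, summed to 2122 to 2837 in the labelled knockdown of MCF10AT1 and 1024 to 1857 in its control, without overlap. Most of this was CD14, at 2075 ± 304 (SD, n = 3) against 898 ± 439 (log2 fold change 1.31, adjusted p = 0.0567), which passed with replicates paired by letter, while PTPRC was at 0 in both groups and CD3E and CDH5 in the labelled knockdown. In the labelled knockdown of MCF10CA1h, 3 of 7 tested epithelial markers rose, 2 of 7 fibroblast markers rose and 1 fell, and both tested leukocyte and endothelial markers, CD14 and PECAM1, fell, while in MCF10A 1 epithelial marker rose (KRT5). In bulk RNA, fewer cells of a type and less RNA per cell cannot be told apart. Each group came from a line grown from a single cell. By real-time PCR, the study reported higher N-cadherin, vimentin and MMP2 RNA in the MCF10AT1 knockdown lines. It reported lower E-cadherin RNA there too, though not in every knockdown line. It read these changes as fitting a mesenchymal switch. Whether such a switch or a mixture of cells lies behind the MCF10AT1 marker changes was not tested.

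Matches to the p53 consensus element in windows around annotated start sites of TP73, GLS2, MDM2 and FDXR are shown here, because such an element is what the p53 family binds. The windows run from 250 bases before to 50 bases after a RefSeq start (GRCh38.p14). A match is the p53 consensus by name, a pair of 10-base parts with up to 13 bases between them, at most 2 mismatches in all and the core C and G of each part kept; the element is its own reverse complement in form, so 1 search covers both strands. Capitals mark the matched parts.
TP73, at an internal start, chr1:3690594-3690617, plus strand: ccGGGCAAGCTGAGGCCTGCCCcg
GLS2, at the 5′ start, chr12:56488112-56488134, minus strand: ggAGGCTTGCTGGGGCATGCGCt
MDM2, at an internal start, chr12:68808921-68808944, plus strand: ctGGTCAAGTTCAGACACGTTCcg
FDXR, at the 5′ start, chr17:74872996-74873025, minus strand: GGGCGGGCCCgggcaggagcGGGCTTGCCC
Each of these had 2 mismatches. The match began 76 bases before the internal start of TP73 and 29 bases after the start of GLS2, and in FDXR a spacer of 10 bases lies between the matched parts. Of the 18 member windows, 5 held a match, and 2 of these overlap and share the MDM2 site. Among all 35116 windows, 1030 (2.93%) held one. TP63, CDKN1A, GDF15, SESN1 and ZMAT3 had no match in their windows, which says only that these letters are not within them. The binding of any factor was not measured.

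TP63 (chr3:189631389-189897276, plus strand) encodes p63. In MCF10A its normalized counts were 1570, 2786 and 3396 in the control and 3100, 2910 and 3779 in the labelled knockdown. For MCF10AT1 the values were 216, 111 and 745 in the control and 517, 411 and 749 in the labelled knockdown. In MCF10CA1h they were 973, 1298 and 852 in the control and 963, 781 and 636 in the labelled knockdown. Groups overlapped within every line, while both MCF10A groups lay above all libraries of the other lines. The group means ran from 3263 ± 457 (SD, n = 3) in the labelled knockdown of MCF10A to 357 ± 339 in the MCF10AT1 control, a ratio of 9.13. None of the log2 fold changes passed the test (0.40, standard error 0.27, adjusted p = 0.498 in MCF10A; 1.05, standard error 0.64, adjusted p = 0.336 in MCF10AT1; -0.39, standard error 0.18, adjusted p = 0.202 in MCF10CA1h). Control replicate c of MCF10AT1, at 745, was level with the highest labelled knockdown library, and without it the MCF10AT1 difference passed (log2 fold change 1.80, adjusted p = 0.0353).

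TP73 (chr1:3652516-3736201, plus strand) encodes p73. Its values in MCF10A were 5.41, 6.79 and 3.09 in the control and 174, 57.2 and 67.6 in the labelled knockdown. Libraries of MCF10AT1 held 32.9, 0 and 17.9 in the control and 4.74, 11.2 and 0 in the labelled knockdown. Counts of MCF10CA1h were 102, 84.7 and 62.4 in the control and 20.0, 9.87 and 18.6 in the labelled knockdown. These groups did not overlap in MCF10A, where the labelled knockdown was higher, nor in MCF10CA1h, where it was lower. The rise in MCF10A was 19.5-fold in the means (log2 fold change 3.91, standard error 0.52, adjusted p = 0.0130), while the MCF10CA1h mean fell to 19.4% of its control value (log2 fold change -2.32, standard error 0.35, adjusted p = 0.00257). In MCF10AT1 the log2 fold change was -1.06 (standard error 1.49, adjusted p = 0.689), and TP73 entered only 12 of 15 alternative fits. The call in MCF10A was lost without labelled knockdown replicate a (adjusted p = 0.0540) or c (adjusted p = 0.0644), and the one in MCF10CA1h was lost in the fit of all 18 libraries (adjusted p = 0.443). WRAP73 and 3 antisense genes lie over TP73 on the other strand, and whether the counting used strand was not stated.

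**Figure D1:**
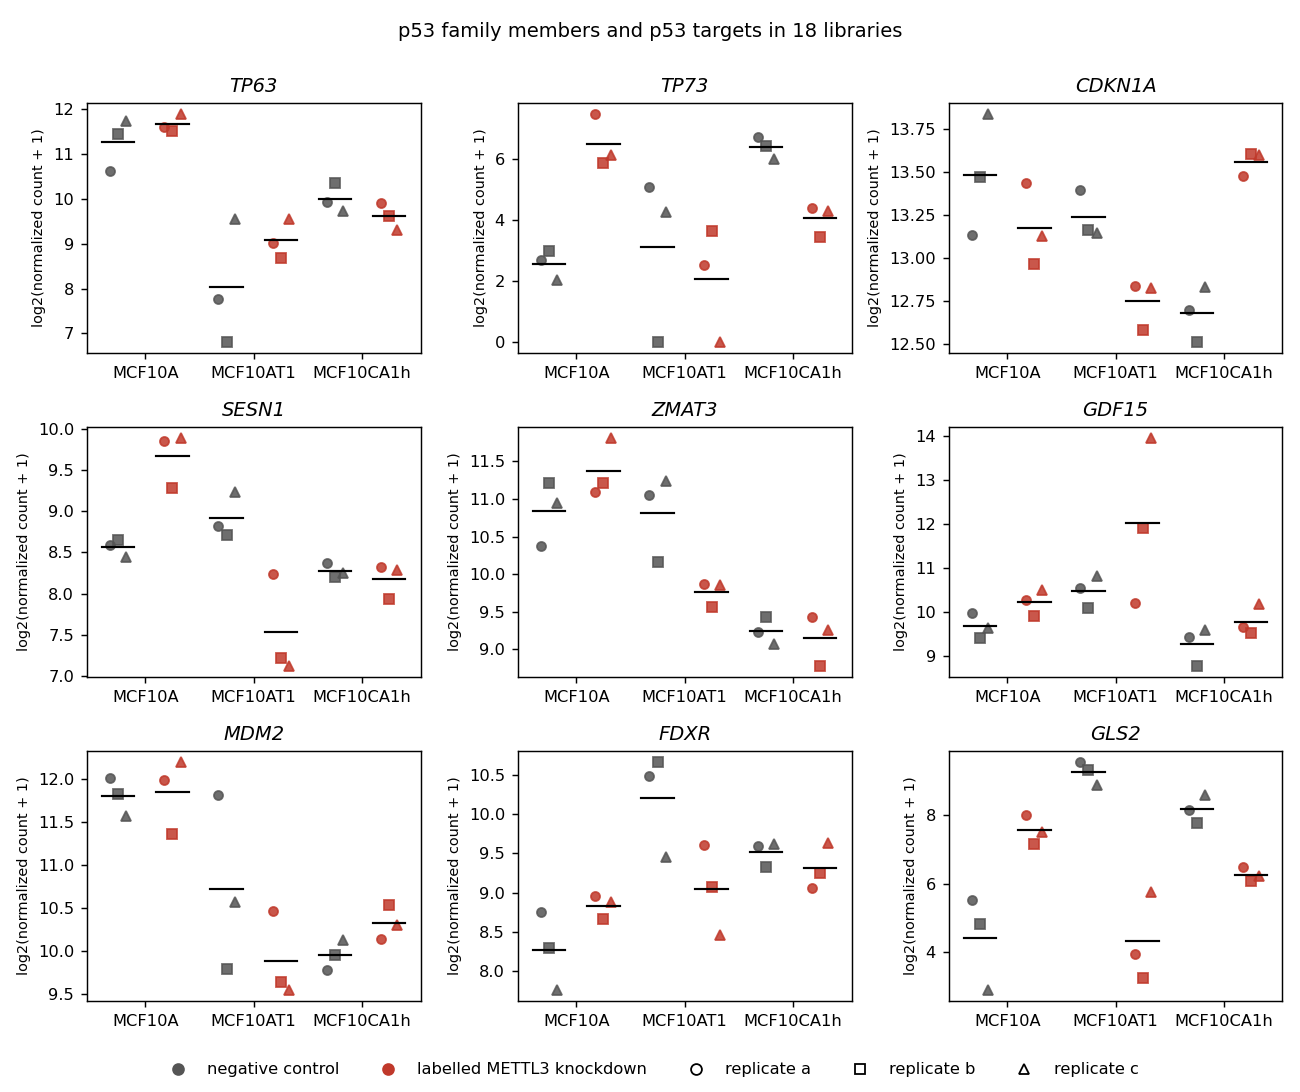
Each panel plots log2 of the normalized count plus 1 (vertical axis) of 1 gene in the 18 libraries, grouped by cell line (horizontal axis), with control libraries in grey, labelled knockdown libraries in red, a marker shape for each replicate letter and a bar at the group mean. GLS2 is higher in the labelled knockdown of MCF10A and lower in those of MCF10AT1 and MCF10CA1h with no overlap in any line, whereas the TP63 groups overlap in every line.

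CDKN1A (chr6:36676460-36687337, plus strand) encodes p21, the inhibitor of cyclin-dependent kinases through which p53 halts the cell cycle. Its normalized counts in MCF10CA1h were 6636, 5842 and 7287 in the control and 11391, 12416 and 12379 in the labelled knockdown. For MCF10A the values were 8986, 11334 and 14591 in the control and 11053, 7998 and 8930 in the labelled knockdown. In MCF10AT1 they were 10755, 9174 and 9067 in the control and 7302, 6126 and 7268 in the labelled knockdown. CDKN1A was thus higher without overlap in the labelled knockdown of MCF10CA1h, below every control library in that of MCF10AT1, and overlapping in MCF10A. The rise in MCF10CA1h was 1.83-fold (log2 fold change 0.88, standard error 0.10, adjusted p = 0.000482), which passed under each of 15 alternatives. The log2 fold changes of -0.49 in MCF10AT1 (standard error 0.25, adjusted p = 0.244) and -0.30 in MCF10A (standard error 0.21, adjusted p = 0.504) did not pass, and that in MCF10AT1 passed in the fit of all 18 libraries (adjusted p = 0.0483). DINOL overlaps CDKN1A on the other strand.

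MDM2 (chr12:68808177-68845544, plus strand) encodes the ubiquitin ligase that holds p53 low. In MCF10AT1 its normalized counts were 3623, 882 and 1523 in the control and 1409, 798 and 748 in the labelled knockdown. Libraries of MCF10CA1h held 875, 988 and 1124 in the control and 1129, 1490 and 1261 in the labelled knockdown. Counts of MCF10A were 4140, 3636 and 3045 in the control and 4065, 2644 and 4707 in the labelled knockdown. Separation was seen only in MCF10CA1h, by a narrow margin, and control replicate a of MCF10AT1 was more than any other library of that line. None of the changes passed (log2 fold change 0.38, standard error 0.14, adjusted p = 0.102 in MCF10CA1h; 0.05, standard error 0.23, adjusted p = 0.944 in MCF10A; -0.84, standard error 0.51, adjusted p = 0.334 in MCF10AT1). With replicates of the same letter paired in MCF10AT1, the adjusted p was 0.0498, and without control replicate a the log2 fold change was -0.30.

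SESN1 (chr6:108984309-109094846, minus strand) encodes sestrin 1, a stress-induced inhibitor of mTORC1 signalling. In MCF10A its normalized counts were 385, 402 and 348 in the control and 924, 620 and 944 in the labelled knockdown. For MCF10AT1 the values were 450, 419 and 602 in the control and 301, 149 and 139 in the labelled knockdown. In MCF10CA1h they were 329, 292 and 302 in the control and 318, 245 and 310 in the labelled knockdown. SESN1 was above every control library in the labelled knockdown of MCF10A, below every control library in that of MCF10AT1, and overlapping in MCF10CA1h. The rise in MCF10A was 2.19-fold (log2 fold change 1.11, standard error 0.21, adjusted p = 0.0356), a call lost without an intensity trend (adjusted p = 0.0755) and without control replicate b or c or labelled knockdown replicate a or c (adjusted p up to 0.157). The MCF10AT1 mean was 40.0% of its control value (log2 fold change -1.39, standard error 0.39, adjusted p = 0.0512), which did not pass unpaired and passed with replicates paired (adjusted p = 0.0144), in the fit of all 18 libraries (adjusted p = 0.000799) and without labelled knockdown replicate a (adjusted p = 0.0283). In MCF10CA1h the log2 fold change was -0.09 (standard error 0.15, adjusted p = 0.748).

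ZMAT3 (chr3:178960121-179072215, minus strand) encodes an RNA-binding zinc finger protein. In MCF10A its normalized counts were 1323, 2365 and 1968 in the control and 2181, 2377 and 3586 in the labelled knockdown. Libraries of MCF10AT1 held 2123, 1143 and 2427 in the control and 936, 752 and 924 in the labelled knockdown. Counts of MCF10CA1h were 600, 686 and 538 in the control and 687, 438 and 611 in the labelled knockdown. Only the MCF10AT1 groups were separate, with the labelled knockdown lower. That difference (log2 fold change -1.06, standard error 0.34, adjusted p = 0.0787) passed with replicates paired (adjusted p = 0.0121), in the fit of all 18 libraries (adjusted p = 0.00964) and without control replicate b (log2 fold change -1.39, adjusted p = 0.0156). The log2 fold changes in MCF10A (0.53, standard error 0.26, adjusted p = 0.333) and in MCF10CA1h (-0.09, standard error 0.18, adjusted p = 0.782) did not pass.

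GDF15 (chr19:18374731-18389176, plus strand) encodes a secreted member of the TGF-beta superfamily that many stresses induce. In MCF10AT1 its normalized counts were 1492, 1080 and 1811 in the control and 1176, 3832 and 15742 in the labelled knockdown. For MCF10A the values were 1002, 680 and 787 in the control and 1226, 952 and 1433 in the labelled knockdown. In MCF10CA1h they were 692, 436 and 764 in the control and 804, 727 and 1154 in the labelled knockdown. Groups overlapped in all 3 lines, and labelled knockdown replicate c of MCF10AT1 was far above every other library of the series. The log2 fold change was 1.53 in MCF10AT1 (standard error 0.80, adjusted p = 0.258), passed with replicates paired (adjusted p = 0.0343), and was 0.57 without replicate c (adjusted p = 0.495). That same library had the lowest summed level of 25 cell cycle genes among the 6 of MCF10AT1, 7744 against 40633 and 66112 in replicates b and a, and the part of this in the result was not tested. In MCF10A and MCF10CA1h the log2 fold changes were 0.55 (standard error 0.21, adjusted p = 0.220) and 0.52 (standard error 0.23, adjusted p = 0.169), and neither passed, although the latter did with the letter as a block (adjusted p = 0.0436), in a line whose letters were not found to pair.

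FDXR (chr17:74862497-74873031, minus strand) encodes ferredoxin reductase, which passes electrons to mitochondrial enzymes. In MCF10AT1 its normalized counts were 1435, 1621 and 701 in the control and 781, 535 and 351 in the labelled knockdown. Libraries of MCF10A held 429, 314 and 215 in the control and 497, 404 and 470 in the labelled knockdown. Counts of MCF10CA1h were 773, 640 and 786 in the control and 533, 607 and 793 in the labelled knockdown. These groups overlapped in each line, in MCF10AT1 only through control replicate c. The MCF10AT1 difference (log2 fold change -1.16, standard error 0.43, adjusted p = 0.118) passed with replicates paired (adjusted p = 0.00932), in the fit of all 18 libraries (adjusted p = 0.0133) and without control replicate c (log2 fold change -1.53, adjusted p = 0.0405). The log2 fold changes of 0.57 in MCF10A (standard error 0.26, adjusted p = 0.305) and -0.20 in MCF10CA1h (standard error 0.16, adjusted p = 0.463) did not pass.

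GLS2 (chr12:56470944-56488414, minus strand) encodes the mitochondrial glutaminase that turns glutamine into glutamate. It was the member that moved most in MCF10AT1 and passed the test in all 3 lines. In MCF10A its normalized counts were 45.1, 27.6 and 6.52 in the control and 254, 143 and 182 in the labelled knockdown. For MCF10AT1 the values were 743, 640 and 469 in the control and 14.6, 8.48 and 52.9 in the labelled knockdown. In MCF10CA1h they were 284, 219 and 381 in the control and 88.7, 66.9 and 73.2 in the labelled knockdown. No groups overlapped within a line, and the direction in MCF10A was opposite to that in the other lines. The mean rose 7.31-fold in MCF10A (log2 fold change 3.13, standard error 0.63, adjusted p = 0.0434), fell to 4.10% of the control in MCF10AT1 (log2 fold change -4.93, standard error 0.63, adjusted p = 0.00165), whereas in MCF10CA1h it fell to 25.9% (log2 fold change -1.91, standard error 0.23, adjusted p = 0.000678). The MCF10AT1 call held under each of 15 alternatives, with a log2 fold change between -5.64 and -4.39. The MCF10CA1h call was lost only in the fit of all 18 libraries (adjusted p = 0.165), and the MCF10A call was lost without an intensity trend (adjusted p = 0.0879), with a mean of at least 50 required (adjusted p = 0.0505) and without control replicate b or any 1 of the labelled knockdown libraries (adjusted p up to 0.171). SPRYD4 overlaps GLS2 on the other strand.

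In MCF10A, 3 of the 9 members passed the test, TP73, SESN1 and GLS2, all higher in the labelled knockdown, where 2.65% of the 15416 tested genes passed, 1.16% as higher and 1.49% as lower. The groups of the same 3 members did not overlap, as was so for 23.9% of tested genes, and the median log2 fold change was 0.55 for the members and -0.00 for all tested genes. The count was 0 without labelled knockdown replicate a or c and 1 (TP73) without control replicate b or without an intensity trend. Over all tested genes, the calls in these fits were 72, 52, 86 and 237 in that order, against 409 in the main fit. The cell cycle gene sum in the MCF10A controls was 12870, 3575 and 1246 in replicates a, b and c, against 5391, 11932 and 6470 in the labelled knockdown, and its part in these results was not tested.

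In MCF10AT1, 1 of 9 members passed, GLS2, lower, where 13.0% of 16050 tested genes passed, 7.07% as higher and 5.96% as lower. With replicates paired by letter, 6 passed, of which SESN1, GLS2, MDM2, FDXR and ZMAT3 were lower and GDF15 higher. Calls over all genes rose too, to 3939 of 16050 in that fit from 2091 in the unpaired one. In the fit of all 18 libraries 5 passed, with CDKN1A in place of MDM2 and GDF15, where 5146 of 15897 tested genes passed. The groups did not overlap for 4 members (CDKN1A, SESN1, ZMAT3 and GLS2, all lower) and for 32.8% of tested genes, and the median log2 fold change was -1.06 for the members and 0.02 for all tested genes. Leaving out single libraries gave counts of 1 to 3, with more than 1 without control replicate b or c or labelled knockdown replicate a. Over all tested genes, the fits with 1 library left out gave 1020 to 2439 calls. The loss of CDH1 and EPCAM and the presence of THY1 and COL3A1 in the same 3 libraries moved with these differences, and their part was not tested.

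In MCF10CA1h, 3 of 9 passed, CDKN1A higher and TP73 and GLS2 lower, where 12.8% of 15127 tested genes passed, 7.91% as higher and 4.85% as lower. Groups did not overlap for these and for MDM2, and for 32.7% of tested genes. The median log2 fold change of the members was -0.09, and that of all tested genes was -0.02. Leaving out any 1 library left 3 members past the threshold, with 1089 to 1785 calls over all tested genes. The fit of all 18 libraries left 1, CDKN1A, where 248 of 15897 tested genes passed.

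**Figure D2:**
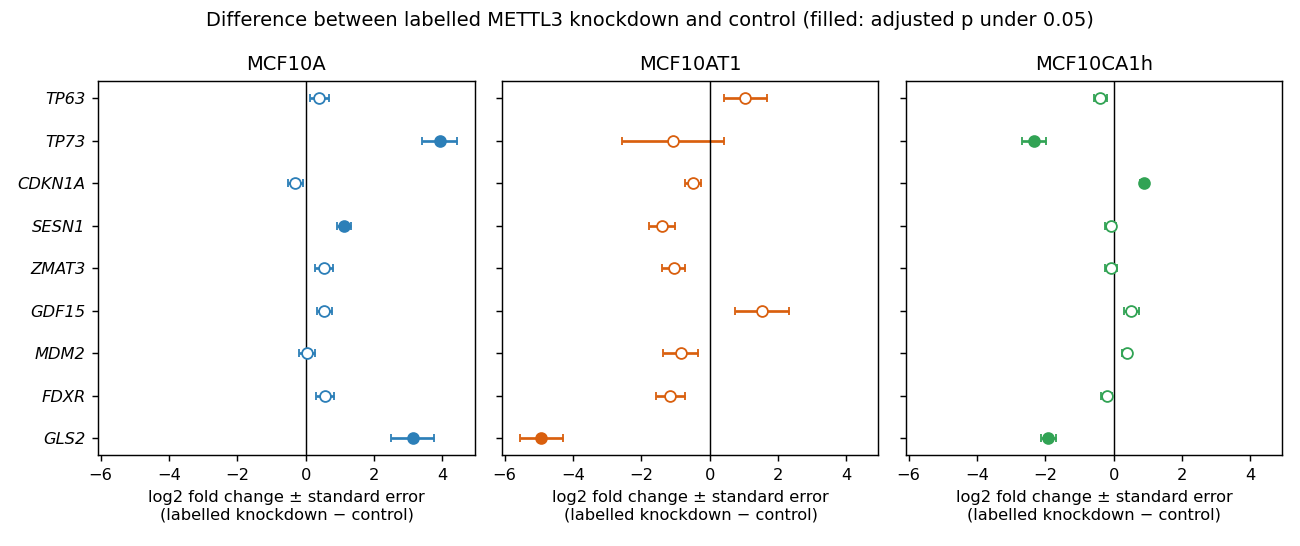
Points give the log2 fold change of the labelled knockdown against control (horizontal axis) of each of the 9 genes in the 3 lines, with bars of 1 standard error from limma and filled points for an adjusted p under 0.05. TP73 and GLS2 lie to the right of 0 in MCF10A (3.91 and 3.13) and to the left in MCF10CA1h (-2.32 and -1.91).

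The differences between lines in the effect of the labelled knockdown were tested directly in 1 fit of the 18 libraries, in which each line enters a pair of contrasts. Comparing MCF10AT1 with MCF10A, 5 members differed (21.6% of 15897 tested genes, 11.2% with a higher and 10.5% with a lower effect), each with a lower effect in MCF10AT1. These were GLS2 (difference of log2 fold changes -8.06, standard error 0.85, adjusted p = 4.1e-06), SESN1 (-2.50, standard error 0.38, adjusted p = 0.000154), ZMAT3 (-1.59, standard error 0.41, adjusted p = 0.00945), FDXR (-1.72, standard error 0.47, adjusted p = 0.0140) and TP73 (-4.97, standard error 1.48, adjusted p = 0.0226). The first 4 held without any single library, whereas TP73 was lost without MCF10A control replicate c or labelled knockdown replicate a, or without MCF10AT1 control replicate a or c (adjusted p up to 0.0660). Its means in MCF10AT1, 16.9 in the control and 5.33 in the labelled knockdown, lay near the filter at 10. TP63 passed without MCF10AT1 control replicate c (adjusted p = 0.0413), MDM2 without MCF10AT1 control replicate b (adjusted p = 0.0334) and GDF15 without MCF10AT1 labelled knockdown replicate a (adjusted p = 0.0340). Thus SESN1, ZMAT3 and FDXR, which did not pass in MCF10AT1 alone in the unpaired fit, passed for a difference from MCF10A in this fit. The fit uses 1 variance per gene for all lines. Libraries of MCF10AT1 deviated more from their group means (root mean square 0.446 to 0.827 in log2) than those of MCF10CA1h (0.343 to 0.387). Its standard errors may therefore be too small for MCF10AT1.

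Comparing MCF10CA1h with MCF10A, 3 members differed, where 5.34% of tested genes did, 3.65% with a higher and 1.69% with a lower effect. CDKN1A had a higher effect in MCF10CA1h (1.18, standard error 0.25, adjusted p = 0.0114), and TP73 (-6.24, standard error 1.48, adjusted p = 0.0203) and GLS2 (-5.04, standard error 0.85, adjusted p = 0.00221) a lower one. The TP73 difference was lost without MCF10A control replicate c, MCF10A labelled knockdown replicate a, MCF10CA1h control replicate a or MCF10CA1h labelled knockdown replicate b (adjusted p up to 0.0642), and SESN1 passed without MCF10AT1 labelled knockdown replicate a (adjusted p = 0.0225). Comparing MCF10CA1h with MCF10AT1, 3 differed (18.2% of tested genes, 9.67% with a higher and 8.51% with a lower effect), all with a higher effect in MCF10CA1h: CDKN1A (1.36, standard error 0.25, adjusted p = 0.00114), GLS2 (3.02, standard error 0.85, adjusted p = 0.0209) and SESN1 (1.30, standard error 0.38, adjusted p = 0.0246). With the replicate letter as a block 7 differed, where 3948 of 15897 tested genes did. MDM2 (1.22, adjusted p = 0.0226), ZMAT3 (0.97, adjusted p = 0.0465) and FDXR (0.96, adjusted p = 0.0431) were added with a higher effect in MCF10CA1h. TP63 was added with a lower one (-1.44, adjusted p = 0.0304). CDKN1A held without any single library. GLS2 was lost without MCF10AT1 labelled knockdown replicate b, MCF10CA1h control replicate b or MCF10CA1h labelled knockdown replicate a (adjusted p up to 0.0600), and SESN1 without any of 6 libraries (adjusted p up to 0.0677). MDM2 and ZMAT3 passed without MCF10AT1 control replicate b (adjusted p = 0.0137 and 0.0144), TP63 and FDXR without MCF10AT1 control replicate c (adjusted p = 0.00345 and 0.0350), and GDF15 without MCF10AT1 labelled knockdown replicate a (adjusted p = 0.0380).

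The controls alone showed how the members differ between the stages of the series, in comparisons that share their libraries. From MCF10A to MCF10AT1, 3 of 9 members passed, where 28.1% of tested genes did, 13.3% as higher and 14.7% as lower. TP63 was at 13.8% of the MCF10A mean (log2 fold change -3.23, standard error 0.59, adjusted p = 0.00627), GLS2 was 23.4-fold higher (4.82, standard error 0.58, adjusted p = 0.00100) and FDXR 3.92-fold higher (1.93, standard error 0.35, adjusted p = 0.00601). All 3 held without any single library. TP73, at 0 in MCF10AT1 control replicate b, passed without that library (log2 fold change 2.10, adjusted p = 0.0179). MDM2 passed without MCF10AT1 control replicate a (adjusted p = 0.0127), and GDF15 without MCF10A control replicate a or MCF10AT1 control replicate b (adjusted p down to 0.0356) and with the replicate letter as a block (adjusted p = 0.0341). That block takes equal letters of different lines as matched, which was not examined.

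From MCF10A to MCF10CA1h, 6 of 9 passed, where 37.8% of tested genes did, 19.0% as higher and 18.8% as lower. MDM2 (log2 fold change -1.85, standard error 0.42, adjusted p = 0.00836), ZMAT3 (-1.60, standard error 0.31, adjusted p = 0.00434) and CDKN1A (-0.80, standard error 0.21, adjusted p = 0.0150) were lower. GLS2 (3.75, standard error 0.58, adjusted p = 0.00142), TP73 (3.81, standard error 1.10, adjusted p = 0.0225) and FDXR (1.25, standard error 0.35, adjusted p = 0.0204) were higher. MDM2, ZMAT3 and GLS2 held without any single library, whereas TP73, CDKN1A and FDXR were each lost without MCF10A control replicate c and without MCF10CA1h control replicate a, among others (adjusted p up to 0.0747, 0.0627 and 0.0787), and TP63 passed without MCF10AT1 control replicate b or c (adjusted p down to 0.0129). From MCF10AT1 to MCF10CA1h, 3 passed (21.8% of tested genes, 11.0% as higher and 10.8% as lower): TP63 was higher (1.96, standard error 0.59, adjusted p = 0.0410), and GDF15 (-1.22, standard error 0.28, adjusted p = 0.0152) and ZMAT3 (-1.58, standard error 0.31, adjusted p = 0.00770) were lower. Of these, only ZMAT3 held with libraries scaled to equal sums and without each single library. TP73, MDM2, SESN1, FDXR and GLS2 each passed when certain single libraries were left out (lowest adjusted p = 0.0299, 0.0270, 0.0283, 0.0174 and 0.0446), in the first 4 genes a control library of MCF10AT1 and for GLS2 replicate c of the MCF10A control.

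In the order of their 6 group means, the members fell into different patterns. GLS2 and TP73 had the widest ranges, with ratios of the highest to the lowest mean of 24.4 and 19.5, and CDKN1A the narrowest, at 1.83. SESN1 was highest in the labelled knockdown of MCF10A (830 ± 181, SD, n = 3), whose libraries lay above all of the next group, the MCF10AT1 control (490 ± 98.3), and lowest in the labelled knockdown of MCF10AT1 (196 ± 91.2), which overlapped the group above it. GLS2 was highest in the MCF10AT1 control (617 ± 138), above all libraries of the next group, the MCF10CA1h control (295 ± 81.9). The lowest GLS2 groups, the MCF10A control (26.4 ± 19.3) and the labelled knockdown of MCF10AT1 (25.3 ± 24.1), overlapped. FDXR groups overlapped at every step of their order, from 1252 ± 486 in the MCF10AT1 control to 319 ± 107 in the MCF10A control.

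The gene whose log2 level was most like that of TP63 over the 18 libraries was ITGAV (integrin alpha V), with Pearson's r of 0.964 among 15897 genes, followed by ABCC4 (0.957), RLIM (0.957), UFL1 (0.954) and ACAP2 (0.951). ITGAV had a mean of 2124 in the MCF10A control, 485 in the MCF10AT1 control and 829 in the MCF10CA1h control. For TP73 the most alike were CCDC125 (0.864), DDX12B (0.842), NEMP1 (0.839), CPT2 (0.838) and SMC2 (0.837). These libraries share 6 groups and their scaling, so the correlations describe the groups as much as the libraries.

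Other p53 targets were described from a list of 45 genes, all tested. In MCF10A none of the 45 passed the limma test. An unadjusted p under 0.05 was found for 15, 10 of them higher, and for 2839 of 15416 tested genes. With replicates paired 4 passed, 2 higher and 2 lower, where 1172 of 15416 tested genes did. Without MCF10A control replicate a 4 passed (1418 of 15419 tested genes did), and in the fit of all 18 libraries 1 did (610 of 15897). The median log2 fold change was 0.21, against -0.00 for all tested genes. In MCF10AT1, 9 passed (20.0%, against 13.0% of all tested genes), all lower, where 5.96% of tested genes were lower, and the median was -0.85 against 0.02. The largest were ATF3 (log2 fold change -4.96, standard error 0.69, adjusted p = 0.00240), a stress-response transcription factor, SFN (-3.08, standard error 0.50, adjusted p = 0.00516), the 14-3-3 protein sigma, and SPATA18 (-2.96, standard error 0.53, adjusted p = 0.00800), a factor in mitochondrial quality control. TIGAR, PERP, TP53I3, TRIM22, PLK2 and AEN were the others. With replicates paired, 24 of the 45 passed, 23 lower and 1 higher, where 3939 of 16050 tested genes passed. Without MCF10AT1 control replicate b 14 passed, where 2439 of 16076 tested genes did. SFN and PERP are also on the list of p63 targets and basal genes, and epithelial markers fell in the same libraries, the part of which was not tested.

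In MCF10CA1h, 10 of the 45 p53 targets passed (22.2%, against 12.8% of tested genes), 7 higher and 3 lower, with a median of 0.09 against -0.02. TRIM22, an antiviral ubiquitin ligase of the tripartite motif family, rose (log2 fold change 2.01, standard error 0.28, adjusted p = 0.00153), as did TP53I3, an oxidoreductase (1.05, standard error 0.13, adjusted p = 0.000637), while NINJ1, which acts in rupture of the plasma membrane, fell (-0.97, standard error 0.16, adjusted p = 0.00396). TP53I3 and TRIM22 were thus lower in the labelled knockdown of MCF10AT1 and higher in that of MCF10CA1h. SFN, among the 10 here too, is also on the list of p63 targets and basal genes. With equal sums per library 9 passed, 5 higher and 4 lower, where 2078 of 15175 tested genes did, 1043 higher and 1035 lower. In the fit of all 18 libraries 1 passed, where 248 of 15897 tested genes did.

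Regulators of p53 were described from a list of which 17 genes were tested. None passed in MCF10A (1 at an unadjusted p under 0.05). With replicates paired 1 passed there, where 1172 of 15416 tested genes did. In MCF10AT1, PPP1R13L, which encodes the inhibitory p53-binding protein iASPP, fell (log2 fold change -2.46, standard error 0.39, adjusted p = 0.00470). There, 3 regulators passed with replicates paired, where 3939 of 16050 tested genes did. In the fit of all 18 libraries 6 passed, 2 higher and 4 lower, where 5146 of 15897 tested genes did. In MCF10CA1h, MDM4, the partner and relative of MDM2, fell (-0.56, standard error 0.15, adjusted p = 0.0399), a call that held under only 7 of 15 alternatives. The single calls of the fits by line are 5.88% of the list in either line, under the shares of all tested genes. CDKN2A, also among the 18 genes of the list, had no values here and was not tested.

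**Figure D3:**
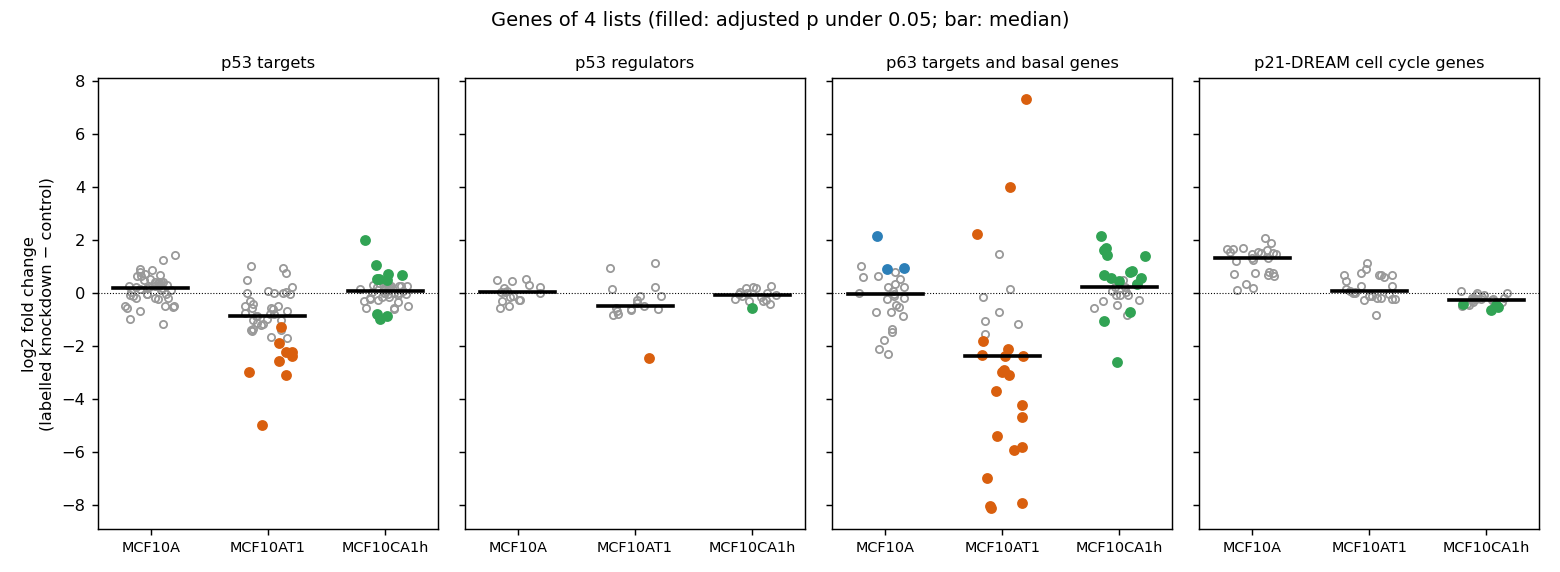
Each panel plots the log2 fold change of the labelled knockdown against control (vertical axis) for the genes of 1 list in the 3 lines (horizontal axis), filled where the adjusted p was under 0.05, with a bar at the median. The median of the p63 targets and basal genes lies at -2.36 in MCF10AT1, and those of the p53 targets at 0.21, -0.85 and 0.09 in the 3 lines.

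p63 targets and basal epithelial genes were described from a list of 29 genes, beside TP63, which passed in no line. In MCF10A, 3 of 27 tested rose (11.1%, where 2.65% of all tested genes passed and 1.16% were higher), CLCA2 (log2 fold change 2.15, standard error 0.30, adjusted p = 0.0139), DST (0.94, standard error 0.18, adjusted p = 0.0373) and the basal keratin KRT5 (0.90, standard error 0.18, adjusted p = 0.0455). The list's median was -0.04, against -0.00 for all tested genes. With replicates paired 12 passed, 4 higher and 8 lower, where 1172 of 15416 tested genes did. With single libraries left out 0 to 9 passed, where 52 to 1418 of all tested genes did. In MCF10AT1, 21 of 28 passed (75.0%, against 13.0% of all tested genes), 18 lower and 3 higher (5.96% and 7.07% of tested genes), with a median of -2.36 against 0.02. The largest falls were of the basal keratin KRT15 (log2 fold change -8.13, standard error 0.58, adjusted p = 0.000101), the desmosomal cadherin DSG3 (-8.05, standard error 0.55, adjusted p = 8.1e-05) and the hemidesmosomal collagen COL17A1 (-7.92, standard error 0.37, adjusted p = 2.3e-05). The TP63 values in those libraries, 517, 411 and 749, overlapped those of their controls.

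In MCF10CA1h, 15 of 29 genes of this list passed (51.7%, against 12.8% of all tested genes), 12 higher and 3 lower (7.91% and 4.85% of tested genes), with a median of 0.24 against -0.02. KRT14, a basal keratin, rose (log2 fold change 2.15, standard error 0.17, adjusted p = 7.0e-05), as did the laminin chain LAMA3 (1.71, standard error 0.13, adjusted p = 5.3e-05), while ZNF750, an epidermal differentiation factor, fell (-2.59, standard error 0.51, adjusted p = 0.00925). With equal sums 18 passed, 12 higher and 6 lower, where 2078 of 15175 tested genes did, 1043 higher and 1035 lower. In the fit of all 18 libraries 4 passed, all higher, where 248 of 15897 tested genes passed, 180 as higher. In the controls the same list was lower in MCF10AT1 than in MCF10A for 17 of 29 genes (1 higher, median -1.41; 14.7% of tested genes were lower) and lower in MCF10CA1h than in MCF10A for 14 (3 higher, median -1.22; 18.8% of tested genes were lower), beside the lower TP63 of MCF10AT1.

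Cell cycle genes that p21 represses through the DREAM complex were described from a list of 25 genes, beside CDKN1A. In MCF10CA1h, where CDKN1A rose, 4 of the 25 passed (16.0%, near the 12.8% of all tested genes), all lower, where 4.85% of tested genes were lower. Of the 25, 13 had an unadjusted p under 0.05, all lower, where 4230 of 15127 tested genes had one in either direction. The median was -0.27 against -0.02 for all tested genes. The 4 that passed were the proliferation marker MKI67 (log2 fold change -0.63, standard error 0.10, adjusted p = 0.00256), the replication helicase subunit MCM5 (-0.54, standard error 0.12, adjusted p = 0.0154), the survival and mitosis gene BIRC5 (-0.47, standard error 0.09, adjusted p = 0.00975) and the transcription factor E2F1. The sum of the list was 65772 to 75231 in the labelled knockdown and 83143 to 87319 in the control, without overlap. With equal sums 8 of the 25 passed, where 2078 of 15175 tested genes did. With single libraries left out 1 to 7 passed (moved most by control replicate a and labelled knockdown replicate a), where 1089 to 1785 of all tested genes did. In the fit of all 18 libraries none passed, where 248 of 15897 tested genes did.

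In MCF10A and MCF10AT1 none of the 25 passed the limma test or reached an unadjusted p under 0.05. The medians were 1.34 and 0.10, and the latter was -0.07 with equal sums. The MCF10A controls spread widely, with the sum at 12870 in replicate a, 3575 in b and 1246 in c, and CDKN1A in the same libraries was 8986, 11334 and 14591. In the labelled knockdown of MCF10AT1 the sum was 66112 in replicate a, 40633 in b and 7744 in c, while CDKN1A was near level between a and c. A link between the sum and CDKN1A was not tested. Without MCF10A control replicate a, 11 of the 25 passed in MCF10A, where 1418 of 15419 tested genes did. Without MCF10AT1 labelled knockdown replicate c, 5 passed in MCF10AT1, where 1747 of 16042 tested genes did. In the controls, 17 of 25 were higher in MCF10AT1 than in MCF10A (median 2.96; 13.3% of tested genes were higher) and 25 of 25 were higher in MCF10CA1h than in MCF10A (median 4.56; 19.0% of tested genes were higher), where CDKN1A was lower.

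**Figure D4:**
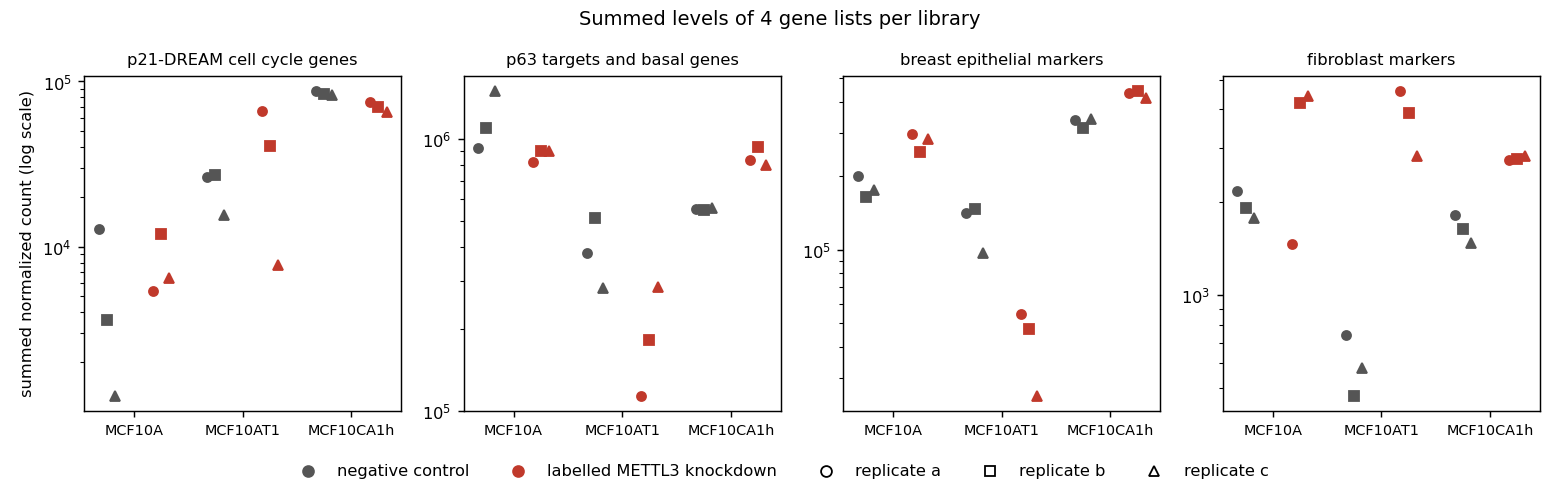
Summed normalized counts per library (vertical axis, log scale) are plotted for 4 gene lists by cell line (horizontal axis), with control libraries in grey, labelled knockdown libraries in red and a marker shape for each replicate letter. The cell cycle sum runs from 1246 to 12870 among the MCF10A controls but only from 83143 to 87319 among those of MCF10CA1h, and the breast epithelial marker sum is lowest in the labelled knockdown of MCF10AT1.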

How the data were processed

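RNA of 18 libraries was measured. Libraries were made from total RNA with a stranded ribosomal depletion kit by the protocol, while the labels name polyA RNA, and this conflict was not settled. The authors pseudo-aligned reads with Kallisto 0.46.1, built gene values and normalized them with DESeq2 1.26.0 in R 4.1.1 (hg38 in the submitters' processing notes), and the deposited normalized counts are a signal rather than reads. Of their low values, 15.2% to 37.7% per library lay within 0.02 of whole multiples of the commonest low value, so reads were not recovered and counting error is unknown. Size factors computed here over the 18 libraries were near 1.

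Symbols were matched to Ensembl identifiers for 35894 of 35933 genes, and 24646 genes without values were left out. Differences were fitted in R 4.3.3 with limma 3.58.1 (lmFit, eBayes with an intensity trend) on log2(normalized count + 1), keeping genes whose mean over the fitted libraries reached 10. Log2 fold changes are on that scale, which understates changes of low genes. Each line was fitted alone, the 9 controls in 1 fit and differences between lines in 1 fit of 18 libraries. p was two-sided and adjusted by Benjamini-Hochberg over all tested genes, with a threshold of 0.05 (passing the test). The script was tested on simulated data. Other values came from Python 3.11.15 with pandas 2.3.3, NumPy 2.4.6, SciPy 1.17.1 and Matplotlib 3.10.9.

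Replicate letters come from the titles. The correlation of deviations from the group means between control and labelled knockdown libraries of the same letter, over 15897 genes, was 0.221, 0.200 and 0.116 in MCF10A, 0.110, 0.289 and 0.477 in MCF10AT1, and -0.01, 0.02 and 0.05 in MCF10CA1h. A different-letter pair of MCF10AT1, control b with labelled knockdown a, reached 0.251. The main fits left the letters unpaired in every line. The fit with the letter as a replicate block was an alternative. It is given beside member results it changes, such as 6 rather than 1 members in MCF10AT1. p-values measure the spread between replicates of 1 clonal line.

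Members and gene lists were chosen with earlier results of these data known. Named were METTL3, the 9 members, the 3 passing genes of each list and line with the largest change, and the 5 genes most like TP63 and TP73. Other genes named beside small counts, and markers named as at 0, were chosen after their values were seen. Gene positions come from GENCODE v44 (hg38), and promoter windows from RefSeq (GRCh38.p14), with 18 windows for the 9 members. The alternatives tried were other pseudocounts (0.5 and 5), other filters (none, or a mean of 50), a fit without the intensity trend, median-of-ratios rescaling, equal sums, the replicate block, a joint fit of 18 libraries and each library left out.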

Additional observations from a re-analysis of the deposited data

Results flagged for a closer look

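The effect of the labelled knockdown differed between lines for 6 members in 11 comparisons. This is by the interaction test in the fit of 18 libraries, which uses 1 variance per gene although the spread was larger in MCF10AT1. Over all 15897 tested genes, 21.6% differed between MCF10AT1 and MCF10A, 5.34% between MCF10CA1h and MCF10A and 18.2% between MCF10CA1h and MCF10AT1. In MCF10AT1 relative to MCF10A, the difference of log2 fold changes was -8.06 for GLS2, -4.97 for TP73, -2.50 for SESN1, -1.72 for FDXR and -1.59 for ZMAT3. For GLS2 the effects were 3.13 in MCF10A and -4.93 in MCF10AT1, so that all 3 labelled knockdown libraries were above all 3 controls in the first line and below them in the second, and the same was true of SESN1 (effects of 1.11 and -1.39). The epithelial marker sum of the labelled knockdown of MCF10AT1 was 25221 to 54618, against 97174 to 147006 in its control, and its part in these differences was not tested.

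In MCF10CA1h relative to MCF10A, the difference was -6.24 for TP73, -5.04 for GLS2 and 1.18 for CDKN1A. The TP73 effects were 3.91 in MCF10A and -2.32 in MCF10CA1h, with no overlap between groups in either line. In MCF10CA1h relative to MCF10AT1, the difference was 3.02 for GLS2, 1.36 for CDKN1A and 1.30 for SESN1. For GLS2 both effects were falls, of different size (-1.91 and -4.93), and for CDKN1A the effects were 0.88 and -0.49. With certain single libraries left out, TP73 no longer passed in either comparison with MCF10A. GLS2 and SESN1 were lost likewise between MCF10CA1h and MCF10AT1.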

How the results depend on the processing

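Pseudocounts, rescaling by median-of-ratios factors and dropping the filter changed no count of members in any of the comparisons by more than 1.5 times. Without an intensity trend the members passing in MCF10A went from 3 to 1, and the calls over all tested genes there from 409 to 237. In the same setting METTL3 in MCF10CA1h (log2 fold change -0.49) no longer passed (adjusted p = 0.0742). With the replicate block the count went from 1 to 6 in MCF10AT1 and from 3 to 7 for the difference between MCF10CA1h and MCF10AT1. Over all tested genes the calls went from 2091 to 3939 and from 2890 to 3948. GDF15 passed in MCF10CA1h (adjusted p = 0.0436), a line whose letters did not pair. It also passed between the MCF10AT1 and MCF10A controls (adjusted p = 0.0341), where the block matched letters across lines. The block ended no call of a member. In the joint fit of 18 libraries the count was 5 in MCF10AT1 and 1 in MCF10CA1h, and METTL3 in MCF10CA1h (-0.49) had an adjusted p of 0.501. That fit uses 1 variance per gene for all lines. Over all tested genes the calls went from 2091 to 5146 in MCF10AT1 and from 1929 to 248 in MCF10CA1h. Equal sums took the count between the MCF10CA1h and MCF10AT1 controls from 3 to 1, where calls over all tested genes went from 3410 to 3293. Equal sums also moved the median log2 fold change of all genes in MCF10AT1 from 0.02 to -0.15. The cause of these changes was not tested.

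With single libraries left out, members passing ranged from 0 to 3 in MCF10A, 1 to 3 in MCF10AT1, 3 to 5 between the MCF10AT1 and MCF10A controls, 3 to 7 between the MCF10CA1h and MCF10A controls, 1 to 5 between the MCF10CA1h and MCF10AT1 controls, and 1 to 5 for the difference between MCF10CA1h and MCF10AT1. Calls over all tested genes in the same fits also ranged widely. In that order they were 52 to 1418, 1020 to 2439, 1661 to 8142, 3675 to 7623, 1608 to 5593 and 2139 to 4206. METTL3 in MCF10CA1h ranged from -0.56 to -0.40. Signs turned for values that had not passed: MDM2 in MCF10A (-0.13 to 0.29), SESN1 in MCF10CA1h (-0.16 to 0.0295), ZMAT3 in MCF10CA1h (-0.23 to 0.10) and between the MCF10AT1 and MCF10A controls (-0.26 to 0.31), TP73 between those controls (-0.44 to 2.10) and for the difference between MCF10CA1h and MCF10AT1 (-2.28 to 0.29), and GDF15 for the difference between MCF10CA1h and MCF10A (-0.28 to 0.13). With 3 replicates of 1 clone per group and no reads, neither counting error nor differences between clones could be estimated.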
